A study of Mus musculus with 81 samples.

Results

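Chromatin accessibility of mouse embryonic stem (ES) cells was followed over the first 9 h of their conversion into epiblast-like cells (EpiLC), in bulk ATAC peaks of the 9h and 0h groups. The 9h bulk list held 154758 peaks and the 0h bulk list 154235, and every peak of both lists was used. A 9h peak that overlapped no 0h peak by 1 bp was called gained, a 0h peak that overlapped no 9h peak was called lost, and all others were called kept. Merged, the 9h and 0h lists covered 184201 regions, out of 228225 in the 9 lists of the ES cell course.

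ATAC-seq marks the sites of open chromatin that a transposase can reach, and these lists come from DNA left unbound when newly copied, EdU-labelled DNA was captured on streptavidin beads. The series holds 81 samples in 27 groups. The 9h group (3 samples, called differentiation intermediates in the labels) was plated on fibronectin in N2B27 medium with 10 ng/mL FGF2 and 20 ng/mL Activin A. The 0h group (3 samples) was grown in N2B27 medium with 3 µM Gsk3i (Chir99021) and LIF, with 1 µM MEKi (PD0325901) exchanged for 250 nM of the FGFR inhibitor PD173074 24 h before induction. That exchange preceded induction, so the 9h cells had been through it too. Both groups were WT cells of the line 129/Ola, and the labels describe EdU as 20 µM for 10 min. Plating, coating and medium differed together with time, so their parts in a difference between 9h and 0h cannot be told apart. The labels do not say which capture arm a bulk sample belongs to or whether samples came from separate cultures.

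Naive ES cells stand for the pre-implantation epiblast, and EpiLC for the formative epiblast just after implantation. Inhibition of MEK and Gsk3, with LIF, holds the naive state through a network of factors that includes ESRRB, KLF proteins, TFCP2L1 and NANOG, and Gsk3 inhibition keeps Wnt target genes on through beta-catenin and the TCF/LEF factors. FGF and activin signalling lead cells out of it, and factors such as OTX2 and POU3F1 open the enhancers of the formative state.

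Each time has 1 deposited list for its 3 samples, so no spread between replicates can be given and no difference was tested. Shares carry Wilson 95% intervals, which cover counting error only and treat peaks as independent. The read depth behind the lists is unknown. In a bulk sample, fewer open cells and less opening per cell cannot be told apart. As a check of identity at gene ends, all 14 general pluripotency genes had a peak within 1 kb of an end at both times, and so did 16 of 19 naive genes at 9h and 17 of 19 at 0h. Of 12 fibroblast and feeder markers, 6 had no gene-end peak at 9h and 5 had none at 0h, and Dcn had no peak within 10 kb at either time. Gene-end peaks were absent at both times from 2 of 10 primitive endoderm, 1 of 10 trophoblast, 0 of 10 neural and 3 of 10 blood and endothelial markers. A gene-end peak does not show that a gene is transcribed, so these markers say little about minor cell types.

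Promoter sequences show what the clearest changes at annotated starts look like. RefSeq windows of 300 bases (250 before to 50 after a start, GRCm38.p6) were classed by their overlap with the 2 bulk lists. The windows below are those in which the bulk peak itself was gained or lost and only the mature list of the same time held a peak, 3 protein-coding genes per direction by score, with Cer1 and Sp5 from the gene lists. Mature lists come from DNA captured 2 h after labelling and were not used to define gained and lost peaks. Sequences run 5′ to 3′ on the strand of the gene, with matches to the searched motifs in capitals. The first 4 windows opened by 9h and the last 4 closed.
Ccl20 (chr1:83116516-83116815, plus strand): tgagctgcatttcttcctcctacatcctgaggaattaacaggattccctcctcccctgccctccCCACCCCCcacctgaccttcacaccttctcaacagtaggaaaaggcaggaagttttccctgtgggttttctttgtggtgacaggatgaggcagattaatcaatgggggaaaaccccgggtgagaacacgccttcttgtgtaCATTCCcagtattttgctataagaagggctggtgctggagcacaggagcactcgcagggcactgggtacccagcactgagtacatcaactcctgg
Rhox5 (chrX:37754358-37754657, plus strand): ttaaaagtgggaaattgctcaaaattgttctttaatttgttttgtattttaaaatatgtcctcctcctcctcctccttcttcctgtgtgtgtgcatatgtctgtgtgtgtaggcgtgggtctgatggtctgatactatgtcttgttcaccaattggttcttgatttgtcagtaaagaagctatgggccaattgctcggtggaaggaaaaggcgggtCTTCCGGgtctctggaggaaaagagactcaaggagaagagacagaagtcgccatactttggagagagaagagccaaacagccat
Slc29a1 (chr17:45596078-45596377, minus strand): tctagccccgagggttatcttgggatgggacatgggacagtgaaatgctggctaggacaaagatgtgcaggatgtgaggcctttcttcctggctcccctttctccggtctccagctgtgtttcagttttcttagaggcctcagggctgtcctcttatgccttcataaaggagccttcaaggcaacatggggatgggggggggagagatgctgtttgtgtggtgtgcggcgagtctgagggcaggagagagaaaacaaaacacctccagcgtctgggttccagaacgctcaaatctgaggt
Cer1 (chr4:82885102-82885401, minus strand): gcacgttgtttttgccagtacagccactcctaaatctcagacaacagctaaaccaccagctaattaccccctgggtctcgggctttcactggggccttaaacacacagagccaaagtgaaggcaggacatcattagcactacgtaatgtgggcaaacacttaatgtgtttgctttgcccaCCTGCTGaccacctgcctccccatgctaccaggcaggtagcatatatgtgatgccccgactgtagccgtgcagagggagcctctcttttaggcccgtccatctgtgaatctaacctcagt
Mrgprg (chr7:143766944-143767243, minus strand): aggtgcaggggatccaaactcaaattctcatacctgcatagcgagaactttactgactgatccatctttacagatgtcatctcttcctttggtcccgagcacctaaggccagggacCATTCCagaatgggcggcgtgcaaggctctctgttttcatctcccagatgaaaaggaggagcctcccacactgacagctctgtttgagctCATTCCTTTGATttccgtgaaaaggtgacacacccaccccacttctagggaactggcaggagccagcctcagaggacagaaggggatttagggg
Myh7b (chr2:155610993-155611292, plus strand): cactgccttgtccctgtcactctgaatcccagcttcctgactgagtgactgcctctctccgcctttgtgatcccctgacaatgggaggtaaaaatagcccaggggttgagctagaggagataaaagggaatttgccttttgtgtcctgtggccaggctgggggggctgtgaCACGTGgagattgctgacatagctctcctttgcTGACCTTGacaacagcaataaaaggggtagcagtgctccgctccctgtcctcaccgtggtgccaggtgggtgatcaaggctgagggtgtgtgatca
Tanc1 (chr2:59646519-59646818, plus strand): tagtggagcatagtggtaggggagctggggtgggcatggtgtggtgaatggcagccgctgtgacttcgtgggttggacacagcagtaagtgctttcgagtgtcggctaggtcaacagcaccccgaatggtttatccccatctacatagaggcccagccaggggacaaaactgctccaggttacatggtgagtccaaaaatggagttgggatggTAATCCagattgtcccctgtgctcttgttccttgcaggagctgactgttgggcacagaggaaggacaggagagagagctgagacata
Sp5 (chr2:70474673-70474972, plus strand): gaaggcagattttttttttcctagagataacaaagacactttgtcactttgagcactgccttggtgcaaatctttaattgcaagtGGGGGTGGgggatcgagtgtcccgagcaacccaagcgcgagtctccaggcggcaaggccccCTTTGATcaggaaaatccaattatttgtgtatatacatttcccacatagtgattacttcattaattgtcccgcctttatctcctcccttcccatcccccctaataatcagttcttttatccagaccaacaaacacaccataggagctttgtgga

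Among the opened windows, that of Ccl20, a chemokine gene, met a gained peak with a score of 1194, and the nearest 0h peak lay 19126 bp away. Rhox5, a homeobox gene of the X-linked Rhox cluster, met a gained peak with a score of 946, with the nearest 0h peak 52098 bp away. Both windows also held a 48h bulk peak. The window of Slc29a1, which encodes a nucleoside transporter, met a gained peak of score 798, with a 0h peak 123 bp away and no 48h counterpart. Cer1, which encodes a secreted antagonist of Nodal, BMP and Wnt ligands, met a weak gained peak of score 86. The Rhox5 window held an ETS match (CCGGAAG on the opposite strand), Ccl20 a KLF and a TEAD match, and Cer1 a ZIC match. No letters of the 15 motifs searched were found in the Slc29a1 window.

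Among the closed windows, that of Mrgprg, an orphan receptor gene, met a lost peak with a score of 2556 and held the TCF/LEF letters CTTTGAT from base 212 to base 218, counted from the window's 5′ end. A TEAD match there shares 1 base with them. The window of Myh7b, a myosin heavy chain gene, met a lost peak of score 1536 and held an ESRRB match (CAAGGTCA on the opposite strand) from base 205 to base 212, with an E-box upstream. Tanc1, which encodes a synaptic scaffold protein, met a lost peak of score 1120 and held an OTX match. Sp5, a transcription factor gene that is a direct target of beta-catenin, differs from these. Its window lay under a 0h bulk peak of score 1603, but that peak overlapped a 9h peak outside the window, and the nearest 9h peak lay 37 bp from the window. The Sp5 locus held 4 bulk peaks at 9h and 4 at 0h, none of them gained or lost. A TCF/LEF match lies from base 147 to base 153 of that window.

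Over all 32851 promoter windows, 17103 met a 9h peak and 17184 a 0h peak. Of these, 603 had opened (3.53% of those with a 9h peak) and 684 had closed (3.98% of those with a 0h peak). Changed windows were poor in CpG, with a mean of 6.71 per window in opened and 6.46 in closed ones, beside 20.9 in the 16500 kept windows and 3.62 in the 15064 without a peak. The classes also differ in gene type: 261 opened, 343 closed and 13480 kept windows belong to protein-coding genes. In 464 opened windows (76.9%) and 439 closed windows (64.2%) the peak itself was gained or lost. In the rest a peak of the other time lay nearby, at a median of 38.5 bp for 64 opened and 70 bp for 125 closed windows of protein-coding genes. Of the 464, 85 (18.3%) held a 9h mature peak and 7 (1.51%) a 0h mature peak. Of the 439, 13 (2.96%) held a 9h mature peak and 37 (8.43%) a 0h mature peak. The mature lists thus leaned to the same time as the bulk lists, although most changed windows had no mature peak at all. Gained peaks have no 0h bulk peak and lost peaks no 9h one. Low overlap with the mature list of the other time is therefore partly set by the classes.

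Motif letters were searched on both strands, each motif on its own even where matches overlapped: AP-1 (TGANTCA), TCF/LEF (CTTTGAT), ESRRB (CAAGGTCA), OCT (ATGCAAAT), KLF (GGGNGTGG), STAT (TTCCNGGAA), OTX (TAATCC), ETS (CCGGAAG), ZIC (CAGCAGG), TEAD (GGAATG), GRHL (AACCGGTT), FOX (TGTTTAC), E-box (CACGTG), TFAP2 (GCCNNNGGC) and NRF1 (TGCGCATGC). The TCF/LEF letters stood in 13 of 603 opened windows (2.16%, 95% interval 1.26 to 3.65%) and in 44 of 684 closed windows (6.43%, 4.83 to 8.53%), beside 3.73% of all windows. Kept windows with at most 10 CpG, which are closer in base composition, held them in 3.93% of cases, and windows without a peak in 4.98%, which lies inside the interval of closed windows. Where the peak itself was gained or lost, the shares were 2.59% of opened and 7.52% of closed windows. ESRRB letters followed the same order with wide intervals, at 1.16% (0.563 to 2.38%) of opened and 2.92% (1.90 to 4.47%) of closed windows, beside 1.56% of all. Kept windows with at most 10 CpG held them in 2.30% of cases and windows without a peak in 1.98%, both inside the interval of closed windows. Where the peak itself was gained or lost, the ESRRB shares were nearer, at 1.29% of opened and 2.28% of closed windows. ETS letters ran the other way, at 7.13% (5.34 to 9.47%) of opened and 4.09% (2.85 to 5.85%) of closed windows, beside 8.86% of all and 6.61% of kept windows with at most 10 CpG. The intervals of opened and closed windows overlapped for 14 of the 15 motifs, TCF/LEF being the exception. AP-1, which stood in 9.45% of opened and 10.7% of closed windows (7.81% of all and 10.8% of those without a peak), was similar in both directions. OTX letters, for the homeodomain factor OTX2, stood in 8.62% of opened and 8.19% of closed windows (7.06% of all and 9.18% of those without a peak). A match of letters is not a bound site.

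Gained and lost peaks were weak and narrow. Of the 9h peaks, 30408 were gained (19.6%, 95% interval 19.5 to 19.8%), and of the 0h peaks 33053 were lost (21.4%, 21.2 to 21.6%). With an overlap of 50% of both peaks required, the shares were 30.9% gained and 30.7% lost. The median score, the authors' peak caller's value for a peak, was 121 for gained and 433 for kept peaks of the 9h list, and 147 for lost and 637 for kept peaks of the 0h list. Median widths were 220 bp for gained and 432 bp for kept 9h peaks, and 280 bp for lost and 503 bp for kept 0h peaks. Kept peaks were mostly met by a single partner: 439 9h peaks (0.353% of kept) overlapped 2 or more 0h peaks, and 3521 0h peaks (2.91%) overlapped 2 or more 9h peaks. The 9h list covered 73.4 Mb and the 0h list 83.5 Mb, so the 0h peaks were wider at nearly the same number.

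Turnover depended on peak score. Each list was split into 10 equal parts by score (deciles). In the weakest decile of the 9h list (scores 30 to 74) 51.0% of peaks were gained, in the fifth decile 20.6%, in the eighth 3.54% and in the strongest 0.136%, which is 21 peaks. In the 0h list 57.6% of the weakest decile (scores 30 to 91) were lost, 20.2% of the fifth, 3.85% of the eighth and 0.46% of the strongest, which is 71 peaks. Among strong peaks, losses outnumbered gains: the top deciles held 71 lost and 21 gained peaks, and the ninth deciles 268 lost and 159 gained.

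**Figure D1:**
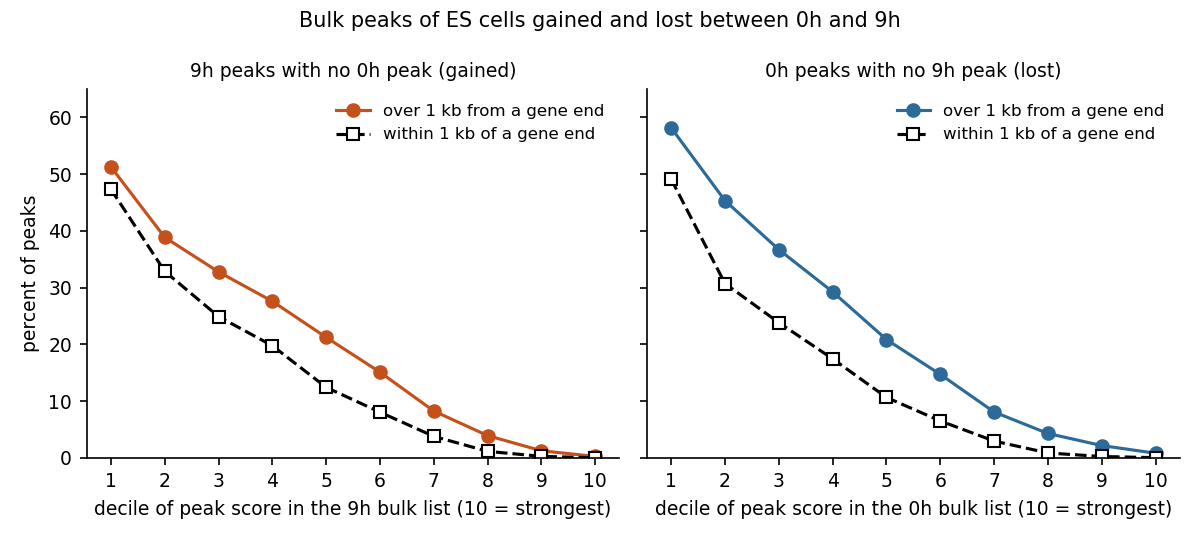
Percent of bulk peaks gained (left, 9h list) and lost (right, 0h list) in each decile of the list by score, for peaks over 1 kb from a gene end (filled circles) and within 1 kb of one (open squares). Both shares are lower at higher scores, down to 0.136% gained and 0.46% lost over all peaks of the strongest decile, and gene-end peaks lie below the others in every decile.

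At equal list lengths, taken from the highest scores down, the shares stayed near those of the whole lists. Among the 50000 highest scores of each list, 18.7% of 9h peaks (18.4 to 19.0%) met no 0h peak of that set and 19.35% of 0h peaks (19.0 to 19.7%) met no 9h peak. Among the 20000 highest the values were 21.9% and 22.05%, and among the 100000 highest 18.6% and 19.9%. These shares count a different thing from absence. Only 1.87% of the 50000 strongest 9h peaks met no peak of the whole 0h list, and 2.32% of the 50000 strongest 0h peaks met no peak of the whole 9h list. Most strong sites in only 1 of the top sets were thus still called at the other time, lower in its list.

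Gained and lost peaks lay away from gene ends. Within 1 kb of either end of a protein-coding gene model lay 5.25% of gained peaks (5.00 to 5.50%) and 4.31% of lost peaks (4.10 to 4.54%), against 15.1% of kept peaks of the 9h list and 15.2% of those of the 0h list. Peaks over 50 kb from any gene end made up 28.8% of gained and 33.3% of lost peaks, against 23.8% of kept peaks in either list. Gained and lost peaks overlapped a gene model in 52.8% of cases in both classes, and kept peaks in 57.2% (9h list). Strong peaks lie more often at gene ends, but the gap also stood between peaks of like score. In the eighth decile, 4.38% of gained and 13.9% of kept 9h peaks lay at a gene end, and 2.86% of lost and 13.3% of kept 0h peaks. In the weakest decile the gap was narrower, at 6.12% of gained and 7.09% of kept 9h peaks, and 5.54% of lost and 7.79% of kept 0h peaks. At the length of 50000, gene-end shares were 8.48% for gained, 6.67% for lost and 29.7% for kept 9h peaks.

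The mature lists, from DNA captured 2 h after labelling, differed between gained and lost peaks. Bulk and mature samples of a time may share cells, so the mature lists need not be independent of the bulk lists. Of gained peaks, 27.2% (26.7 to 27.7%) overlapped a 9h mature peak and 1.95% (1.80 to 2.12%) a 0h mature peak. Of lost peaks, 5.13% (4.90 to 5.38%) overlapped a 9h mature peak and 10.2% (9.89 to 10.5%) a 0h mature peak. Kept peaks of the 9h list overlapped them in 67.2% and 51.1% of cases. The 9h mature list is the longer one, with 94946 peaks against 66518 at 0h. With both mature lists at 66518 peaks by score, gained peaks overlapped the 9h one in 12.8% and the 0h one in 1.95% of cases, and lost peaks in 1.33% and 10.2%. Kept 9h peaks overlapped them in 51.7% and 51.1%. Over whole lists, 65341 0h bulk peaks met a 0h mature peak and 91827 9h bulk peaks a 9h one, so mature peaks lay mostly where bulk peaks of their time were called. By definition a gained peak meets no 0h bulk peak, and a lost peak no 9h one. Low overlap with the mature list of the other time is thus set in large part by the classes and is a description only.

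The separation was widest among strong peaks. In the ninth decile of the 9h list, 89.3% of gained peaks overlapped a 9h mature peak and 5.03% a 0h mature peak, where kept peaks reached 97.5% and 83.9%. In the ninth decile of the 0h list, 2.61% of lost peaks overlapped a 9h mature peak and 83.6% a 0h mature peak, where kept peaks reached 91.4% and 92.1%. In the weakest decile of the 9h list, 13.0% of gained peaks overlapped a 9h mature peak and 1.22% a 0h mature peak, where kept peaks reached 15.9% and 12.6%. In the weakest decile of the 0h list, 4.51% of lost peaks overlapped a 9h mature peak and 2.16% a 0h mature peak, where kept peaks reached 32.1% and 4.71%. Few weak peaks met the mature list of their own time, whether changed or kept, and weak lost peaks met the longer 9h mature list more often than the 0h one. Strong changed peaks mostly had a mature peak at the same time and seldom at the other, the latter set in large part by the classes.

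**Figure D2:**
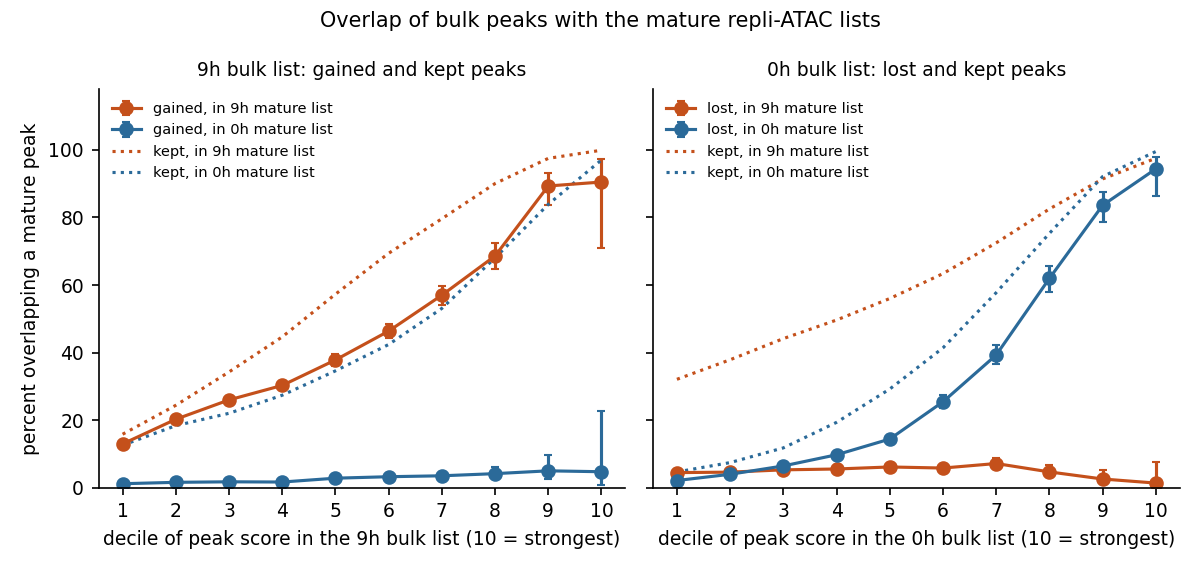
Percent of bulk peaks that overlap a mature peak of 9h (orange) or 0h (blue), by decile of score, for gained and kept peaks of the 9h list (left) and lost and kept peaks of the 0h list (right). Solid lines with Wilson 95% bars are gained or lost peaks and dotted lines kept peaks. In the ninth decile 89.3% of gained peaks meet a 9h and 5.03% a 0h mature peak, and of lost peaks 2.61% meet a 9h and 83.6% a 0h mature peak. Low overlap with the mature list of the other time is set in large part by how gained and lost peaks are defined.

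Nascent lists, from DNA captured at once after labelling, are short, with 18587 peaks at 9h and 19314 at 0h, and held few changed peaks. Of gained peaks 0.556% overlapped a 9h nascent peak and 0.181% a 0h one. Of lost peaks 0.133% overlapped a 9h nascent peak and 0.33% a 0h one. Kept 9h peaks met them in 14.5% and 15.1% of cases. Changed peaks were also rarer in another cell type. In mouse embryonic fibroblasts after 6h of induced reprogramming, 16.0% of gained and 13.5% of lost peaks overlapped a bulk peak, against 38.1% of kept 9h peaks and 38.8% of kept 0h peaks.

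By 48h, 42.0% of gained peaks (41.5 to 42.6%) still had a bulk peak, and 19.6% of lost peaks (19.2 to 20.1%) had one again. Kept peaks had a 48h peak in 71.6% of cases in the 9h list and 72.4% in the 0h list. Persistence of gained peaks went with their score, from 32.4% in the weakest decile to 81.8% in the ninth, where kept peaks reached 91.4%. Return of lost peaks followed no such order: it was 21.4% in the weakest decile, 16.4% in the ninth, where 84.9% of kept 0h peaks had a 48h peak, and 33.8% of the 71 lost peaks in the strongest. From 9h to 48h, 31.1% of 48h peaks met no 9h peak and 34.2% of 9h peaks met no 48h peak, so the share without a partner in that longer step was larger than in the first 9 h.

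Loci of 12 gene lists were compared by the peaks within a gene model and 10 kb on each side. Over all 21887 gene loci, 18.6% of 107501 9h peaks were gained and 20.1% of 106839 0h peaks were lost, and each list is read beside those shares. The formative list had the largest gained share and the Wnt list the largest lost share. The lost share lay below that of all loci in 11 of the 12 lists, so a lost share below that of all loci does not set a list apart. Formative and EpiLC loci held 150 peaks at 9h and 130 at 0h, with 37 gained (24.7%, 18.5 to 32.1%) and 17 lost (13.1%, 8.33 to 19.9%). The interval of that gained share just holds the share of all loci, and 11 of the 37 gained peaks lay at Grhl2. Loci of the Wnt list held 214 and 217 peaks, with 40 gained (18.7%, 14.0 to 24.4%) and 56 lost (25.8%, 20.4 to 32.0%).

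**Figure D3:**
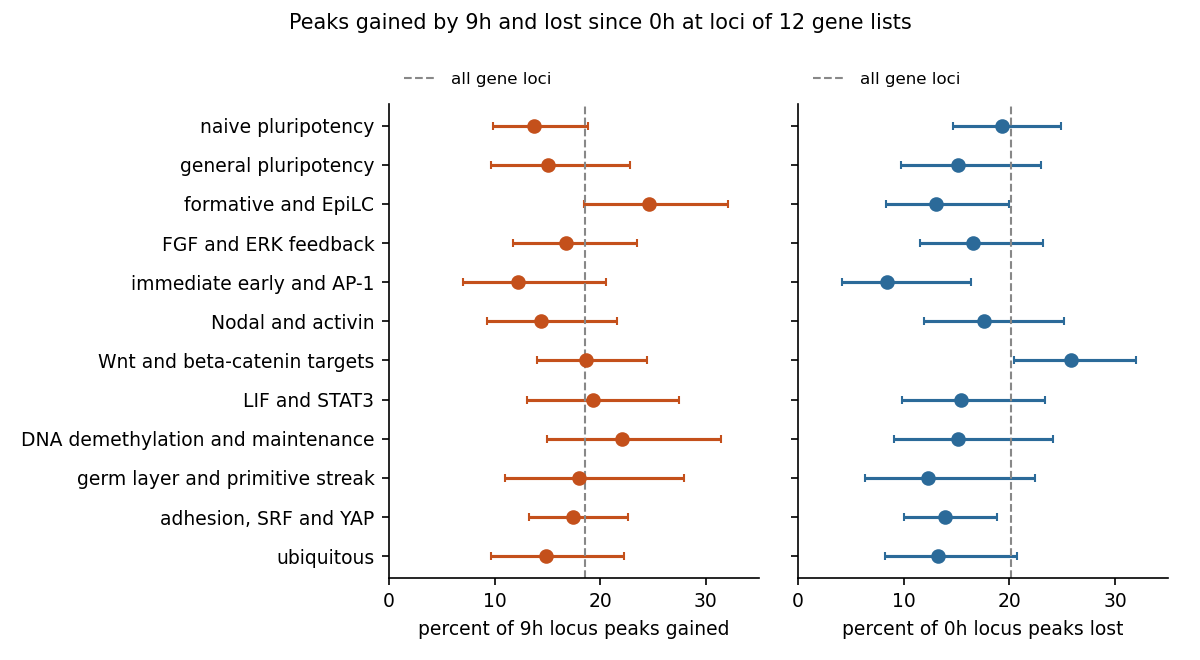
Percent of 9h locus peaks gained (left) and of 0h locus peaks lost (right) for 12 gene lists, with Wilson 95% bars that cover counting error only, beside the share over all gene loci (dashed, 18.6% and 20.1%). The formative list lies highest for gains at 24.7%, with a bar that just reaches the share over all gene loci. The Wnt list lies highest for losses at 25.8%.

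At loci of the naive factors, the lost share was near that of all loci at 9h. Naive loci held 226 peaks at 9h and 228 at 0h, with 31 gained (13.7%) and 44 lost (19.3%). At 48h they held 149. Of 19 genes, 4 had more peaks at 9h, 7 fewer and 8 the same number. Esrrb, a nuclear receptor gene of the naive network, held 43 peaks at 9h and 45 at 0h, through 7 gained and 11 lost. Tet2, which encodes a 5-methylcytosine oxidase, held 20 and 22, and Prdm14, a repressor of FGF receptor signalling and DNA methylation genes, 14 and 16. Zfp42, the gene of REX1, held 14 peaks at 9h and 10 at 0h, with 2 gained and none lost, before 4 at 48h. Nr5a2, an orphan nuclear receptor gene, had no gene-end peak at 9h and 1 at 0h, with 26 locus peaks at each time. Kept peaks at naive loci had a median shift in score rank of 0.07 percentile points, near 0.23 over all kept peaks, but 28 of 195 (14.4%) stood over 20 points lower at 9h and 10 (5.13%) over 20 points higher, beside 12.1% and 8.14% over all. The share that stood over 20 points lower was larger in other lists, at 23.4% for germ layer, 17.9% for Wnt and 16.3% for LIF and STAT3 loci.

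General pluripotency loci held 113 peaks at 9h and 112 at 0h, with 17 gained (15.0%) and 17 lost (15.2%), and 5 of 14 genes had more peaks at 9h and 5 fewer. Pou5f1, the gene of OCT4, held 10 and 7 peaks, with 1 gained and 1 lost. Zscan10, a zinc finger factor gene, held 10 and 8. Tdgf1, the gene of the Nodal co-receptor Cripto, held 7 and 9. The microRNA clusters miR-302 and miR-290, which are active in pluripotent cells, held peaks at both times. The members shown here, 1 of each cluster, share a seed, bases 2 to 8, which stands in capitals in the RefSeq sequence (GRCm38.p6).
mmu-miR-302b-3p (chr3:127545275-127545297, plus strand): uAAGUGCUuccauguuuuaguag
mmu-miR-294-3p (chr7:3220691-3220712, plus strand): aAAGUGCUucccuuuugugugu
The miR-302 cluster held 3 bulk peaks within 10 kb at 9h and 2 at 0h, and the miR-290 cluster 9 and 8. Their strongest peak stood at the 98.3rd percentile of scores at 9h and the 97.7th at 0h for miR-302, and at the 93.4th and 90.7th for miR-290.

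At formative loci, 11 of 17 genes had more peaks at 9h, 5 fewer and 1 the same number. Grhl2, which encodes an epithelial transcription factor, held 28 peaks at 9h and 20 at 0h, with 11 gained and 3 lost. Its mature peaks numbered 18 at 9h and 6 at 0h, where the 9h mature list is longer as a whole, and it again held 20 bulk peaks at 48h. Sall2, a zinc finger factor gene, held 11 peaks at 9h and 6 at 0h, with 4 gained and none lost, and had 2 gene-end peaks at 9h and none at 0h. Dnmt3a, a de novo DNA methyltransferase gene, held 26 and 23 peaks, with 20 and 6 in the mature lists. Pou3f1, a POU factor gene of the formative state, held 5 and 3, and Pim2, a kinase gene, 6 and 3. Cdh2, the gene of N-cadherin, went against the list, with 10 peaks at 9h and 14 at 0h and 5 lost. At Dnmt3l, a cofactor gene of the de novo methyltransferases, kept peaks stood a median of 29.1 percentile points of score rank higher at 9h than at 0h.

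In the Wnt list, 8 of 15 genes had more peaks at 9h and 5 fewer, and inhibitors of the pathway were found on both sides. Znrf3 and Rnf43, which encode ubiquitin ligases that remove Wnt receptors and are themselves Wnt targets, held 15 peaks at 9h against 22 at 0h and 13 against 18, with 9 and 7 lost. Nkd1, an inhibitor gene of the pathway, held 4 and 8, while Dkk1 and Notum, genes of secreted inhibitors, held 6 against 4 and 8 against 7. At Dkk1 no peak was gained or lost, and all 6 9h peaks were kept ones. Tcf7, which encodes the TCF factor TCF1, held 8 and 11. Tcf7l2, another TCF gene, held 32 and 36 and lost 10. Lef1, the gene of the related factor LEF1, held 26 peaks at 9h and 20 at 0h, with 12 gained and 7 lost, and 35 at 48h. Tcf7l1, whose product represses naive genes in ES cells, held 50 and 45. Axin2, which encodes a scaffold of the beta-catenin destruction complex, held 16 and 15. Mature peaks at Znrf3 ran the other way, with 15 at 9h and 6 at 0h.

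FGF and ERK feedback loci held 155 peaks at 9h and 157 at 0h, with 26 gained (16.8%) and 26 lost (16.6%), and 8 of 15 genes had more peaks at 9h and 5 fewer. Among the 50000 highest scores of each list, the gained share there was 25.4%. Spry4, an inhibitor gene induced by ERK, held 9 and 6 peaks, with 5 gained, and its mature peaks numbered 9 and 2. Etv5, an ETS factor gene downstream of FGF, held 22 and 27, with 5 lost. Spred2, another inhibitor gene of the pathway, held 33 and 36 peaks, and Fgfr2, a receptor gene, 11 and 14. Dusp6, an ERK phosphatase gene, held 6 and 4. Immediate early and AP-1 loci had the smallest shares of the 12 lists, with 11 of 90 9h peaks gained (12.2%) and 7 of 83 0h peaks lost (8.43%), and 7 of 17 genes with more peaks at 9h and 3 with fewer. Peaks at these loci had high median scores, 662 at 9h and 1024 at 0h, beside 334 and 468 over all gene loci. Turnover was lower at higher scores, and list shares were not matched for score. Atf3, a stress-response factor gene, held 7 and 4, Myc, a growth regulator gene, 8 and 6, and Fos, an AP-1 subunit gene, 4 and 5.

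Nodal and activin loci held 125 peaks at each time, with 18 gained (14.4%) and 22 lost (17.6%), and 6 of 15 genes had more peaks at 9h and 6 fewer. Smad7, an inhibitor gene of the pathway, held 18 at 9h and 14 at 0h, and Smad3, a signal transducer gene, 13 and 17, with 7 lost and a median rank shift of -13.8 points in its kept peaks. Acvr2b, a receptor gene, held 11 and 13. LIF and STAT3 loci held 114 and 110 peaks, with 22 gained (19.3%) and 17 lost (15.5%), and 5 of 12 genes had more at 9h and 5 fewer. Lifr, the LIF receptor gene, held 27 and 24, Cish, a feedback inhibitor gene, 6 and 3, and Il6st, the gene of the co-receptor gp130, 9 and 11.

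DNA demethylation and maintenance loci held 95 peaks at 9h and 86 at 0h, with 21 gained (22.1%) and 13 lost (15.1%), and 4 of 8 genes had more at 9h and 2 fewer. Tet1, a 5-methylcytosine oxidase gene, held 30 and 26 peaks, before 13 at 48h, and Dnmt1, the maintenance methyltransferase gene, 19 and 15. Germ layer loci held 78 and 65 peaks, with 14 gained (17.9%) and 8 lost (12.3%), and 9 of 14 genes had more peaks at 9h and 4 fewer. Of their 64 kept peaks with a rank, 23.4% stood over 20 points lower at 9h and 1.56% over 20 points higher. Eomes and T, T-box factor genes of the primitive streak, held 10 against 6 and 5 against 2, with 4 and 1 gained. The 4 kept 9h peaks at T had a median rank shift of -28.4 percentile points. The T locus held only 2 0h peaks, so these shifts need not be separate changes. Adhesion, SRF and YAP loci held 252 and 238 peaks, with 44 gained (17.5%) and 33 lost (13.9%), and 9 of 18 genes had more at 9h and 5 fewer. Itga6, an integrin gene, held 19 and 13, Vcl, the gene of vinculin, 8 and 5, and Myh9, a non-muscle myosin gene, 26 and 23. At ubiquitous genes 18 of 121 9h peaks were gained (14.9%) and 15 of 113 0h peaks lost (13.3%), which gives the turnover at housekeeping loci. Ubiquitous loci likewise had high median scores, 676 at 9h and 1015 at 0h. Among the 50000 highest scores their gained share was 8.20%.

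Outside these lists, the largest differences in peak number lay at genes of 102 kb (Rbpj) to 1302 kb (Pde4d). The difference, 9h minus 0h, had a median of 0 over all loci, and its 1st and 99th percentiles were -6 and 5. It was above 10 at 23 loci and below -10 at 34. Long genes have more room for a difference, and no correction for length was made.

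The largest excess at 9h was at Rbpj (chr5:53555779-53657445), the gene of the DNA-binding effector of Notch signalling. It held 45 peaks at 9h and 19 at 0h, with 27 gained and 1 lost, and 13 at 48h. Its mature peaks numbered 25 at 9h and 8 at 0h, and 10 of the 27 gained peaks met a 9h mature peak while none met a 0h one. Only 1 of the 27 had a 48h peak. The gained peaks were weak, with a median score of 103 and a top score of 1424.

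Zfp423 (chr8:87661810-87962053), a zinc finger factor gene, held 60 peaks at 9h and 36 at 0h, with 31 gained, of which 15 met a 9h mature peak and 13 a 48h bulk peak. At 48h the locus held 59 bulk peaks. Enox1, an oxidase gene, held 43 and 22, Ppp1r9a, the gene of the actin-binding scaffold neurabin, 51 and 31, and Zfhx3, a homeobox factor gene, 71 and 52. Pde4d, a cyclic AMP phosphodiesterase gene, held 94 and 76, Cdh4, the gene of R-cadherin, 56 and 38, and Etl4 121 and 104. Ext1, whose product builds heparan sulfate, held 46 and 29, and Lmo7, a LIM domain gene, 45 and 29. All 10 loci also had more mature peaks at 9h than at 0h, in a 9h mature list that is longer as a whole. Of their 240 gained peaks, 81 met a 9h mature peak, 2 a 0h mature peak, and 6 lay at a gene end. Over all gained peaks the shares were 27.2%, 1.95% and 5.25%. The loci were chosen on their bulk counts, so these counts are a description only. Among the 50000 highest scores of each list, Pde4d had 24 peaks at each time, and Etl4 had the opposite order, with 36 at 9h and 42 at 0h.

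The largest deficit at 9h was at Tenm4 (chr7:96171244-96911093), a teneurin gene whose product acts in cell adhesion. It held 77 peaks at 9h and 120 at 0h, with 49 lost and 5 gained, and 66 at 48h. Its mature peaks numbered 40 at each time, and 3 of the 49 lost peaks met a 9h mature peak while 4 met a 0h one. Few of the lost peaks there thus had a mature peak at either time. Zfp385b (chr2:77410622-77817706), a zinc finger gene, held 21 peaks at 9h and 42 at 0h, with 23 lost and 1 gained, and 9 and 16 mature peaks. Of its 23 lost peaks none met a 9h mature peak and 5 met a 0h one.

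**Figure D4:**
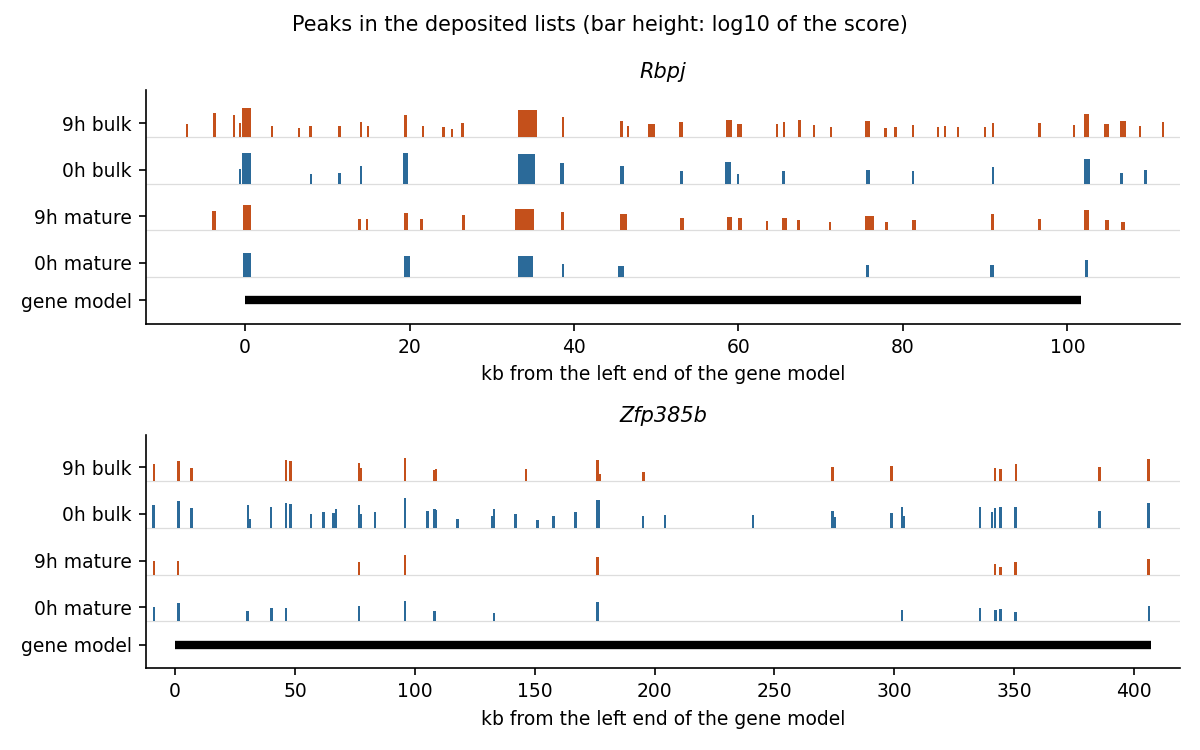
Peaks across Rbpj (top) and Zfp385b (bottom) in the bulk and mature lists of 9h (orange) and 0h (blue), by distance in kb from the left end of the gene model. Bar height rises with the log10 of the score, and narrow peaks are drawn wider than scale so that they can be seen. Rbpj held 45 bulk peaks at 9h and 19 at 0h, and Zfp385b 21 and 42.

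Glis3, a zinc finger factor gene, held 37 peaks at 9h and 55 at 0h, and Tenm3, another teneurin gene, 99 and 117. Frmd4b, the gene of a FERM domain scaffold, held 32 and 49. Fmnl2, a formin gene of actin assembly, held 33 and 48, and Auts2, whose product binds a Polycomb complex, 51 and 66. Slc39a11, a zinc transporter gene, held 69 and 83, and St6galnac3, a sialyltransferase gene, 68 and 82. These 9 loci, with Tenm4 and Zfp385b, were likewise chosen on their bulk counts. Mature peaks were fewer at 9h at 6 of 9, while Tenm3 (60 at 9h and 40 at 0h) and St6galnac3 (41 and 28) had more of them at 9h. Of the 232 lost peaks at these loci, 5 met a 9h mature peak, 29 a 0h mature peak and 26 a 48h bulk peak. Over all lost peaks the shares were 5.13%, 10.2% and 19.6%.

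**Figure D5:**
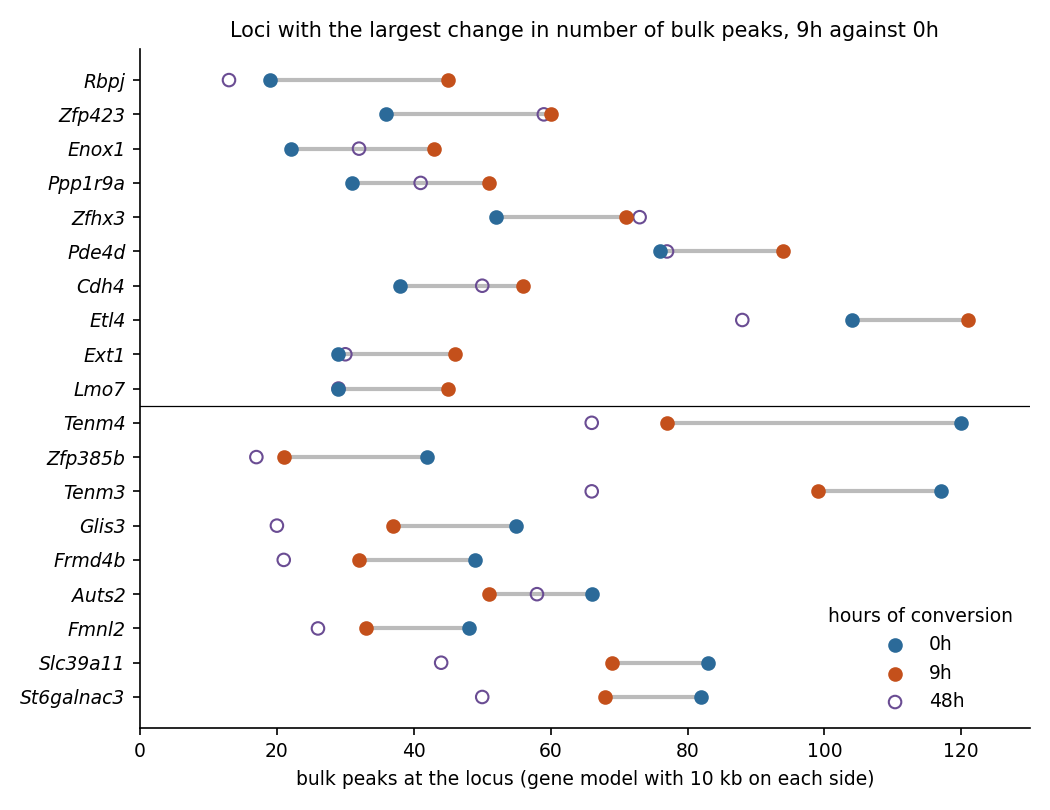
Number of bulk peaks at 0h, 9h and 48h (horizontal axis) at the 10 loci with the largest excess at 9h (upper rows) and 9 of those with the largest deficit (lower rows) outside the gene lists. Grey lines join 9h and 0h, and at Lmo7 the 48h point lies under the 0h point. At Rbpj the 48h count, 13, lies below both earlier counts, while at Zfp423 it is 59, beside 60 at 9h.

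The strongest single changes were found in other lists as well. The 10 gained peaks with the highest scores (2288 to 3674) all had a 48h bulk peak, 9 met a 9h mature peak and none met a 0h mature peak. They included a peak inside Bcar1 (chr8:111733312-111734263, score 3342), which encodes the adhesion scaffold p130Cas, and one inside Vmp1 (chr11:86646518-86646826, score 3030), an autophagy gene. Another lay 10533 bp from Pou3f1 (chr4:124646421-124647113, score 2481) and met nascent peaks at 9h and 48h. Those of Ttc39b and Gpr158 also lay inside the gene, and the rest were nearest to Gm46425, Gm40469, Zfp281, Mgat4d and Acpp. Those of Gm46425 and Gm40469, predicted genes 73025 and 35979 bp away, are 211 and 433 bp wide. Of kept 9h peaks in the strongest decile, 96.5% had a 48h bulk peak and 99.9% met a 9h mature peak.

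The 10 lost peaks with the highest scores (4489 to 6359) all met a 0h mature peak, 6 met a 0h nascent peak, and none met a 9h mature or nascent peak. The strongest lay inside Tcf7l2 (chr19:55792477-55793194, score 6359), in the Wnt list above, and had no 48h peak. Others lay inside Celf4 (score 5517), an RNA-binding protein gene, and inside Tnni1 (chr1:135807267-135808298, score 5312), a troponin gene. Those of Maats1, Cpa6 and Sgf29 also lay inside the gene. The rest were nearest to Gtpbp4, Bbs9, Nrsn1 and Zfp703, at distances up to 536209 bp for Nrsn1, so these names give position only. At 48h, 4 of the 10 had a bulk peak again, those of Celf4, Tnni1, Cpa6 and Zfp703. In either direction, 7 of the 10 lay over 10 kb from a gene end. Over all gained peaks 39.0% lay 10 to 50 kb away and 28.8% over 50 kb. For all lost peaks these shares were 37.3% and 33.3%, so 7 of 10 is near the share of either class. Of kept 0h peaks in the strongest decile, 99.5% met a 0h mature peak and 73.7% a 0h nascent peak.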

How the data were processed

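Bulk ATAC-seq and repli-ATAC-seq libraries of the ES cell course were deposited as 1 peak list per group. Per the submitters' processing notes, reads were handled with bedtools 2.26.0, SAMtools 1.4.1, Bowtie2 2.2.5, bcl2fastq 2.19.1, MACS2 2.2.0 and cutadapt 2.2.0 on the build mm10, which are named without order. Parameters, any shift of reads for the transposase cut and the pooling of the 3 samples of a group are not given in the sources used here. Of the columns, the deposited score is the authors' peak caller's value for each peak, 30 or more in every list. It was used only to describe, rank or filter peaks within a list, since scores of different lists need not share a scale. No counts were used, so depth is unknown.

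An overlap of 1 bp made 2 peaks shared (python 3.11.15, pandas 2.3.3, bedtools 2.31.1). Gene positions came from 21887 protein-coding genes of GRCm38.p6, which shares coordinates with mm10. That table holds no strand, so gene-end peaks are those at most 1 kb from any start or end coordinate of a gene, and a locus is a gene model with 10 kb on each side. Promoter windows and microRNAs came from RefSeq (GRCm38.p6), whose promoter table is not complete. With no genome at hand, motifs were searched in promoter windows in place of the peak windows that were planned. All 233 list genes were found, Atp5f1b as Atp5b. Rank shifts compare score percentiles of overlapping peaks in lists cut to 154235 peaks. The overlap and distance functions were tested on simulated data.

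The peaks compared and the gene lists were chosen with earlier results of these data known. Named genes follow a rule: list genes, drawn mainly from the 4 per list with the largest difference in locus peaks, the 10 other genes with the largest excess and deficit at 9h, the 10 strongest gained and lost peaks, and list genes with a gene-end peak at 1 time only. Nkd1, Dkk1, Notum, Pou3f1, Pim2, Tcf7, Tcf7l2, Axin2, Dusp6, Fos, Dnmt3l and Otx2 are list genes named beside these after their values were seen. The 8 promoter windows were also chosen after their values were seen. A few genes that this rule names are not reported here, and counts over the loci with the largest deficit leave them out. Peaks in repeats or gene families can share reads with near-identical copies.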

Additional observations from a re-analysis of the deposited data

How the results depend on the processing

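No paired analysis was possible because each time has 1 deposited list for its 3 samples, and for the same reason no replicate could be left out. Lists cut to the length of the shorter bulk list, and lists without chromosomes X and Y (added after seeing the data), moved none of the 7 main shares beyond their counting intervals. With an overlap of 50% of both peaks required, 30.9% of 9h peaks were gained and 30.7% of 0h peaks lost, gene-end shares were 6.53% of gained, 5.30% of lost and 16.2% of kept peaks, and 33.0% of gained and 14.3% of lost peaks had a 48h peak. With scores of at least 100, 127786 9h and 135548 0h peaks were left, so these lists were of unequal length, and their scores need not share a scale. Of them 16.9% were gained and 23.2% lost. In that setting 4.58% of lost and 16.5% of kept peaks lay at gene ends, and 43.6% of gained peaks had a 48h peak. Among the 50000 highest scores the shares were 18.7% gained and 19.35% lost, gene-end shares 8.48%, 6.67% and 29.7% for gained, lost and kept peaks, and 41.3% of gained and 14.9% of lost peaks had a 48h peak. Among the 50000 highest scores 25.4% of 9h peaks at FGF and ERK loci and 8.20% at ubiquitous loci were gained. There 6 of 8 list shares stayed within their intervals, as all 8 did with 50 kb on each side. With gene ends within 2.5 kb the gained, lost and kept shares were 11.1%, 9.61% and 21.1%, and with annotated starts in place of gene ends (added after seeing the data) 1.75%, 1.65% and 10.6%. Kept peaks lay at gene ends more often than gained or lost ones in each of these settings. Unknown depth limits all absences: a peak missing from a list may lie under its threshold.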

Other observations

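Gains and losses were spread over the chromosomes. Leaving out chromosome Y, with 49 peaks at 9h and 44 at 0h, the gained share ranged from 17.4% on chromosome 17 to 21.1% on chromosome 5, and the lost share from 19.6% on chromosome 8 to 23.5% on chromosome X. On chromosome 8 20.6% of 9h peaks were gained, and on chromosome 15 20.0% were gained and 19.6% lost, so on these the gained share was above the lost share. On chromosome X 19.3% of 9h peaks were gained.

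Markers of other cell types showed no common direction in bulk peak number. Primitive endoderm loci held 76 peaks at 9h and 77 at 0h, trophoblast loci 72 and 75, fibroblast and feeder loci 41 and 43, neural loci 62 and 54, and blood and endothelial loci 74 and 76. Pdgfra, a receptor gene of primitive endoderm, held 14 peaks at 9h and 8 at 0h, with 5 gained, and Lama1, a laminin gene, 13 and 19, with 8 lost. Prrx1, a mesenchymal factor gene, had no gene-end peak at 9h and 2 at 0h.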
